A study of Mus musculus with 4 samples.

Results

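Antibody transcripts were followed through whole prostate tumours of mice by 7 genes: Igkc (kappa light chain), Iglc2 (a lambda light chain), Ighm, Igha, Ighg2c and Ighg1 (the heavy chains of IgM, IgA and 2 forms of IgG) and Jchain (the joining chain that links IgM and IgA into polymers). The genes were chosen by symbol, because their levels inside and outside plasma cells stood out in these same data, and all 7 of 7 were found among the 32285 genes measured, each in 1 row. Since the levels chose the genes, the levels by cell class are given as a description, with no test.

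The study asked what the chromatin remodeller CHD1 does in tumours that carry a mutant SPOP. Single cells of 4 tumours were profiled with 10x Genomics 3' chemistry, which counts molecules by unique molecular identifiers (UMIs). The 2 PSp mice carried PB-Cre, PtenL/L, SpopF133V and mTmG, and the 2 PCSp mice carried the same alleles together with Chd1L/L. All 4 mice were castrated by surgery at 9 months of age and the whole tumours were taken 1 month later, so no uncastrated or Cre-free animal enters any comparison below. PB-Cre is driven by probasin, a prostate epithelial promoter, so the cells that make antibodies lie outside the tissue that it targets. The labels name no litters or pairs of mice, and the p-values of the genotype comparisons measure the spread between these 4 mice. Those of the difference between classes come from a model that includes the mouse. They measure how the difference between 2 classes of a mouse varies from mouse to mouse. With a mouse left out, 1 genotype rests on a lone mouse.

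The matrices held 33061 barcodes, with 66874620 to 90839725 UMIs per mouse, and 26702 barcodes were kept after filters on depth, mitochondrial share and doublet score. Clusters were made without any antibody gene and named by markers: 12656 epithelial-like cells, 5944 neutrophil-like, 3263 fibroblast-like, 2169 macrophage- and monocyte-like, 1118 T and NK-like, 797 endothelial-like, 195 B-like and smaller groups. Between 11 and 27 barcodes were shared by a pair of libraries. Chd1, the gene that differs between the genotypes, was at 91.5 and 77.9 CPM (UMIs of the gene scaled to the same total in every sum of cells) in epithelial-like cells of the PSp mice and at 60.1 and 56.4 CPM in those of the PCSp mice, with no overlap. Fibroblast-like cells, which lie outside the tissue that PB-Cre targets, had Chd1 at 47.0, 38.6, 49.0 and 56.4 CPM in the order of mice just used. There both PCSp mice stood above both PSp mice. How many other genes were lower in both PCSp mice was not counted for epithelial-like cells, nor how many were higher for fibroblast-like cells. In T and NK-like cells 14.4% of genes were lower in both PCSp mice and 23.9% were higher. Chd1 passed in neither class: edgeR's test of the genotypes called 0 of 16451 genes in epithelial-like and 0 of 12118 in fibroblast-like cells. A 3' tag may lie outside the deleted part of a gene, so these levels are a weak check of the labels.

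An antibody is built of 2 identical heavy and 2 identical light chains, and a B cell or plasma cell keeps 1 rearranged heavy chain gene and 1 rearranged light chain gene. A plasma cell gives over much of its RNA to these transcripts. IgM and IgA that carry the joining chain can be taken up by the receptor Pigr and carried across an epithelium. In droplet data, RNA set free by broken cells is captured in droplets of other cells as well, so tags of very abundant transcripts turn up outside the cells that made them.

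The tags can separate the closest of these genes only as far as their 3' ends differ, so the last 120 coding bases of the 3 lambda constant genes are shown first, from the GENCODE M21 transcripts (GRCm38). They lie in exons of IG_C genes on the minus strand of chromosome 16. Capitals mark bases that differ from Iglc2.
Iglc2, chr16:19198536-19198655: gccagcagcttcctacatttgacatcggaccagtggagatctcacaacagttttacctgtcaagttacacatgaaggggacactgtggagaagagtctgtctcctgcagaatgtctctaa
Iglc1, chr16:19061752-19061871: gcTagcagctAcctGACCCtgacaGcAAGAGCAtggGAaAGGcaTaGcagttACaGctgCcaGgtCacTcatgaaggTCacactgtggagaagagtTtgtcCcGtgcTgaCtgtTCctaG
Iglc3, chr16:19065365-19065484: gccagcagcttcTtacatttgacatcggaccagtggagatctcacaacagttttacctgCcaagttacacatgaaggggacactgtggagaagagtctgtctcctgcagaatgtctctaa
Iglc1 differed from Iglc2 at 39 of the 120 bases (67.5% identity) and Iglc3 at 2 (98.3%), so counts of Iglc2 and Iglc3 may be exchanged and their split is uncertain. Iglc2 also overlaps Iglj2 on its strand, and Igkc, at chr6:70726435-70726966 on the plus strand, overlaps Gm30211 on its strand. Ighm (chr12:113418558-113422730), Igha (chr12:113254830-113260236) and Jchain (chr5:88519809-88527891), all on the minus strand, overlap no other annotated gene.

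The antibody tags of these tumours sat in very few barcodes. Over all 33061 barcodes Igkc had 285023 UMIs, Ighm 47088, Jchain 29416, Igha 22917 and Iglc2 9059. Barcodes in which the 7 genes made up 10% or more of the UMIs, called antibody-rich here, numbered 38 and held 373380 of the 393519 UMIs of the 7 genes, or 94.9%. There were 10 of them in PSp mouse 1, 4 in PSp mouse 2, 16 in PCSp mouse 1 and 8 in PCSp mouse 2. The limit of 10% was set after the values were seen: the barcode just below it had 5.41% and the one just above it 12.8%, and 35 of the 38 lay between 40% and 100%, with a median of 60.7%. These barcodes had from 549 to 45371 UMIs in all, with a median of 17997.

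The marker-based clusters name most of these barcodes as plasma cells only when barcodes with high doublet scores are kept. Then the B cluster parted, without any antibody gene, into 190 B-like cells and 27 plasma-like cells, and the 27 plasma-like cells (7 and 3 in the PSp mice, 13 and 4 in the PCSp mice) were all antibody-rich. The 12 plasma cell markers were all higher per cell than in the B-like cells, which were shallower, and relative to depth Irf4 (56.5 against 110.3 CPM) and Pou2af1 (124 against 156 CPM) were lower. Mzb1, which assists antibody assembly, was at 43.8 UMIs per cell against 1.85 in the B-like cells, and Xbp1, the factor that widens the secretory pathway, at 16.1 against 0.221. Of the 38 antibody-rich barcodes 34 passed the cell filter, 30 of these had doublet scores above the limit, and the automatic doublet call marked 0 of them. That call marked only 2, 0, 64 and 0 barcodes in the 4 whole libraries, so its 0 here says little about these barcodes. The 4 that were kept all came from PCSp mouse 1, 3 in the B cluster and 1 in an epithelial cluster. Tags of another cell class were plain in 4 of the 38, with at least 40 UMIs of that class's markers, and the rest had at most 16. Kept cells thus hold none of the antibody-rich barcodes of the other 3 mice, so values with doublets kept or with antibody-rich barcodes left out are given beside the comparisons below.

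Each antibody-rich barcode was led by either Ighm or Igha, and none held both at 2 or more UMIs. Ighm led in 26 (8, 3, 13 and 2 in PSp mice 1 and 2 and PCSp mice 1 and 2), with 39 to 3362 Ighm UMIs and a median of 1534. Igha led in 12 (2, 1, 3 and 6 in the same order), with 9 to 5162 Igha UMIs and a median of 1685.5. The leading heavy chain gene made up at least 99% of the heavy chain UMIs in 34. The 3 lowest shares of the other 4, between 81.6% and 98.1%, were barcodes with 162, 143 and 37 UMIs of Ighg2b, a further IgG heavy chain. PCSp mouse 2 was the only mouse with more IgA than IgM barcodes.

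Light chains were likewise led by 1 gene in each barcode. Igkc led in 36 of the 38, Iglc1 in 1 and Iglc2 in 1, and the leading gene held at least 95.8% of the light chain UMIs in every one. The Iglc2 barcode, from PCSp mouse 2, had 7629 Iglc2 UMIs and 0 of Igkc, and 7927 of the 9059 Iglc2 UMIs of the series came from that mouse. The Iglc1 barcode, from PCSp mouse 1, had 5363 Iglc1 UMIs beside 43 of Igkc. Jchain was found in all 38, from 21 to 3018 UMIs, with a median of 0.367 Jchain UMIs per heavy chain UMI in the IgM barcodes (0.101 to 1.46) and 0.619 in the IgA barcodes (0.109 to 6). The 2 ranges overlap, and the highest ratio belongs to a barcode with only 9 Igha UMIs.

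**Figure D1:**
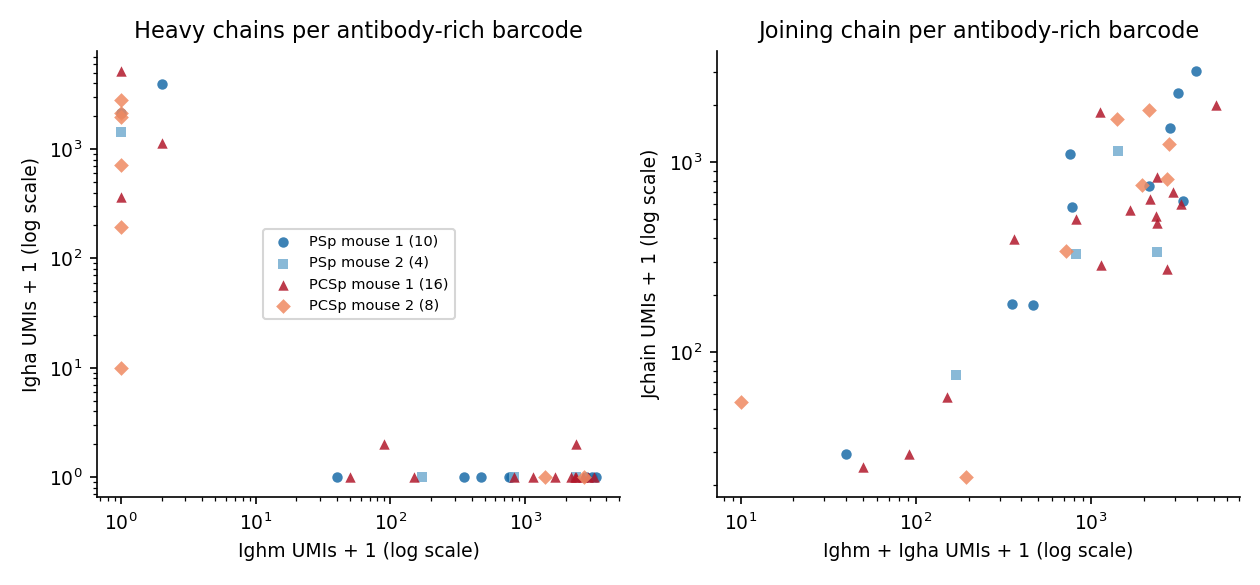
Each point is 1 of the 38 antibody-rich barcodes, coloured by mouse, on log axes of UMIs plus 1. On the left Ighm is set against Igha, and no barcode has 2 or more of both; on the right Jchain is set against the sum of the 2 heavy chains, and every barcode has Jchain.

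Variable genes, which form the antigen-binding end of each chain, gave a second view of the same barcodes. Of the 28 antibody-rich barcodes with at least 10 UMIs of kappa variable (Igkv) genes, 25 had at least 80% of them from 1 gene, and 20 different genes led. A heavy and a light variable gene could both be named in 20 barcodes, which held 16 different pairs, and 1 pair was found more than once: Ighv11-2 with Igkv14-126, in 5 barcodes from all 4 mice, each of them IgM. Ighv11-2 held 100% of the heavy variable UMIs in each of the 5, with 63 UMIs in PSp mouse 1, 26 in PSp mouse 2, 41 and 40 in the 2 barcodes of PCSp mouse 1 and 50 in PCSp mouse 2. Igkv14-126 held 98.9% to 100% of the kappa variable UMIs, with 135, 50, 80, 126 and 89 in the same order. This pair was singled out after its values were seen, and no test of its recurrence was made. As background, the VH11 and Vk9 families to which these genes belong are known for pairing in innate-like B-1 cells of mice, with antibodies that bind phosphatidylcholine.

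The ends of the V exons of this recurring pair are shown from the same transcripts (GRCm38), with a related kappa gene, Igkv14-111, that led 1 antibody-rich barcode of PCSp mouse 1. Capitals mark the bases at which the 2 kappa genes differ.
Ighv11-2, chr12:114048241-114048390, minus strand: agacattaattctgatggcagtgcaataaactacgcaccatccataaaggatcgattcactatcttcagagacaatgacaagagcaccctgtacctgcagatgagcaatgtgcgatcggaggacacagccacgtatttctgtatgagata
Igkv14-126, chr6:67896493-67896642, plus strand: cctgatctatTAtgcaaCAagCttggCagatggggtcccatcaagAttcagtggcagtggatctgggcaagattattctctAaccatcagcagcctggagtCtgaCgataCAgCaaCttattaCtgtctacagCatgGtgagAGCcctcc
Igkv14-111, chr6:68256720-68256869, plus strand: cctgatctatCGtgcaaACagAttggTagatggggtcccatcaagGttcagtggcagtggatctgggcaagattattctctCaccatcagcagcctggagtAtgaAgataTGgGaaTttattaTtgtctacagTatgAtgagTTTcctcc
The 2 kappa genes differed at 20 of the last 150 bases (86.7% identity). Outside the antibody-rich barcodes the pair was rare: 220 of the 230 Ighv11-2 UMIs and 479 of the 495 Igkv14-126 UMIs of the series lay inside them, and 5 further Ighv11-2 UMIs lay in 4 B-like cells.

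Some other transcripts were seen mostly in IgM or mostly in IgA barcodes. Il10, an anti-inflammatory cytokine, was seen in 11 of the 26 IgM barcodes with 59 UMIs (4, 2, 5 and 0 barcodes in PSp mice 1 and 2 and PCSp mice 1 and 2). It was seen in 0 of the 12 IgA barcodes, which allows up to 25%. Ccr10, a receptor that draws IgA-making cells to mucosal surfaces, was seen in 9 of the 12 IgA barcodes with 62 UMIs (2, 1, 2 and 4 by mouse) and in 2 of the 26 IgM barcodes with 5 UMIs. Mice 1 and 2 of PSp and mouse 1 of PCSp each had Il10 in IgM barcodes and not in IgA barcodes, and Ccr10 was seen in IgA barcodes of all 4 mice. Ms4a1, a surface protein of B cells lost in plasma cells, was seen in 9 IgM (3, 0, 6 and 0 by mouse) and 0 IgA barcodes. PCSp mouse 2, which had more IgA than IgM barcodes, thus had no Il10 or Ms4a1 UMI in either kind. Mki67, which marks dividing cells and was looked at after its values were seen, had 66 UMIs in 3 IgA barcodes and 5 in the IgM barcodes. Of the 66, 65 were in PCSp mouse 2 and 43 in 1 barcode. Tnfrsf17, the plasma cell receptor for a survival factor, was seen in 14 of 26 and 6 of 12 barcodes. Barcodes of 1 mouse are not replicates, so these counts carry no test.

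The B-like cells held the members at levels far below the plasma-like cells. Igkc was at 36.0, 29.8, 27.2 and 17.5 UMIs per B-like cell in PSp mice 1 and 2 and PCSp mice 1 and 2, and at 10668, 6298, 9078 and 8680 UMIs per plasma-like cell. Ighm was at 15.2, 12.2, 8.45 and 5.95 UMIs per B-like cell. Both genes were highest in the PSp mice and lowest in PCSp mouse 2, whose library was also the shallowest, and relative to depth Igkc was at 5673, 6619, 7090 and 6130 CPM. Igkc was seen in 179 and Ighm in 177 of the 190 cells, while Jchain was seen in 7 and Igha in 10. Ighd, the IgD heavy chain of naive B cells, was seen together with Ighm in 89. Of the 159 B-like cells with at least 10 light chain UMIs, 74 had more than 90% kappa, 6 had more than 90% lambda and 79 lay between.

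IgG was all but missing. Over the 319489305 UMIs of all barcodes Ighg1 had 2 UMIs (1, 0, 1 and 0 in PSp mice 1 and 2 and PCSp mice 1 and 2) and Ighg2c had 14 (2, 5, 7 and 0), with at most 3 in 1 barcode. Ighg3 had 13 and Ighe, the IgE heavy chain, 0, which allows up to 0.00939 CPM. Ighg2b had 425, with 162 in 1 antibody-rich barcode. Over the 320 bases compared, Ighg2c shared 76.6% with Ighg2b, 71.9% with Ighg1 and 65.3% with Ighg3. Ighg1 and Ighg2c were too low for any test between the genotypes.

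Outside the B cluster, members were found at low levels in every class. Igkc was at 0.252, 0.0746, 0.477 and 0.209 UMIs per epithelial-like cell in PSp mice 1 and 2 and PCSp mice 1 and 2, after the antibody-rich barcode of PCSp mouse 1 was set aside. In fibroblast-like cells it was at 0.140, 0.0251, 0.266 and 0.108, and in neutrophil-like cells at 0.149, 0.0153, 0.295 and 0.141. PCSp mouse 1 was highest and PSp mouse 2 lowest in these classes and in the macrophage-, T and NK- and endothelial-like cells too, and the same 2 mice had the most and the fewest antibody-rich barcodes (16 and 4). Endothelial-like cells, at 0.183, 0.0468, 0.304 and 0.150 UMIs per cell, lay below the epithelial-like cells of the same mouse each time. Relative to depth they lay above them each time, at 24.0, 6.03, 52.9 and 29.6 CPM. The epithelial-like cells were at 12.5, 3.54, 27.7 and 15.9 CPM. The highest single cell outside the B cluster, an epithelial-like cell of PCSp mouse 2 with 39156 UMIs, had 140 Igkc UMIs.

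**Figure D2:**
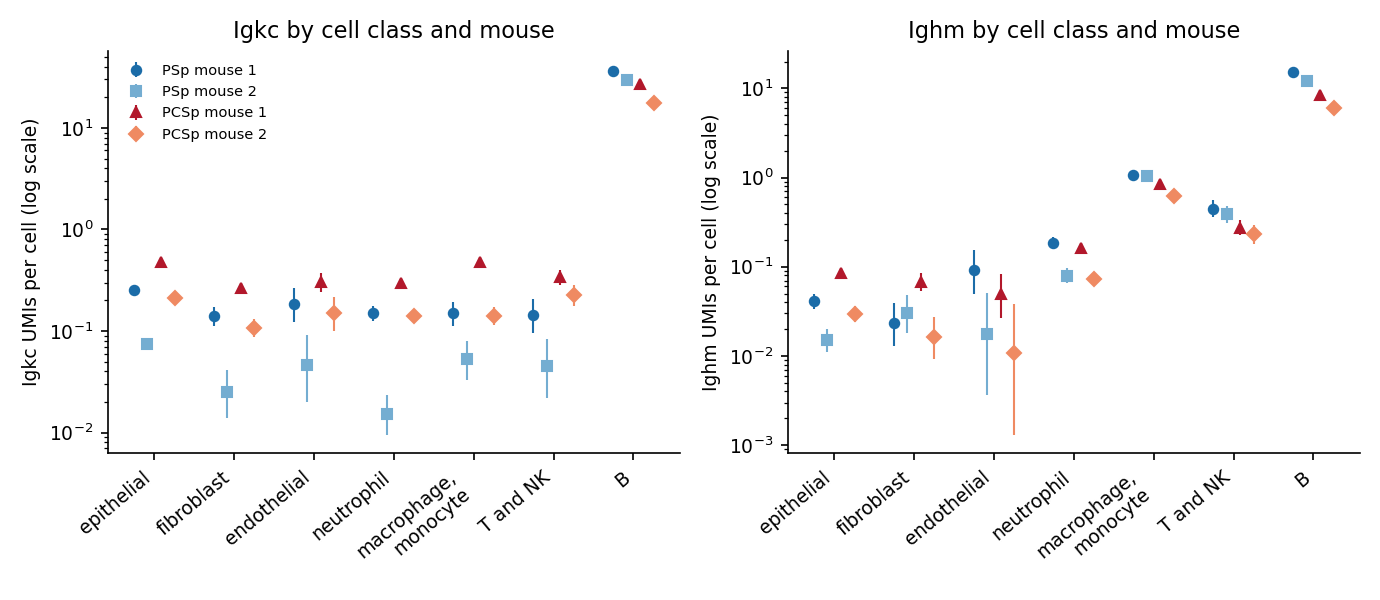
Igkc (left) and Ighm (right) in UMIs per cell, on log axes, by cell class and mouse; bars are exact Poisson 95% intervals, which cover counting error only. Igkc outside the B-like cells follows the mouse more than the class, with PCSp mouse 1 on top, while Ighm stands above the other non-B classes in macrophage- and monocyte-like cells of all 4 mice.

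Transcripts of other cell types outside their own cells gave a measure of how much RNA was shared between droplets. S100a8, a neutrophil transcript, was at 0.0634, 0.179, 0.0599 and 0.130 UMIs per fibroblast-like cell, with 66 of the 107 UMIs of PSp mouse 2 and 30 of the 119 of PCSp mouse 2 in 1 cell each, and 5.01%, 5.02%, 5.47% and 5.69% of the cells had a UMI. In endothelial-like cells it was at 0.0980, 0.0468, 0.0979 and 0.187. Sbp, a secretory transcript of prostate epithelium, was at 0.00334, 0.0518, 0.00868 and 0.00875 UMIs per fibroblast-like cell, and the library of PSp mouse 2, where it was highest, also held the most Sbp, 23160 UMIs against 1453 to 4512. The haemoglobin transcript Hbb-bs was at 0.00219 to 0.0191 UMIs per fibroblast-like cell. None of the 3 had the order of mice that Igkc had in fibroblast-like cells, but the libraries also differed in the amount of each transcript. Per 10000 UMIs of the gene in a library, Igkc was at 0.0158, 0.0118, 0.0215 and 0.0219 UMIs per fibroblast-like cell. By that measure S100a8 was at 0.0213, 0.0472, 0.0166 and 0.0231. Sbp was at 0.0159, 0.0224, 0.0192 and 0.0602, and Hbb-bs at 0.0234, 0.139, 0.0568 and 0.0157. Of 2 further references, S100a9 was at 0.0226, 0.0505, 0.0245 and 0.0137. Pate4 stood far higher in the PCSp mice, at 0.0368, 0.131, 2.09 and 0.383, where the libraries held 4532, 6011, 112 and 486 of its UMIs.

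By the shares of Igkc and Ighm, but not of Igha, the antibody tags in epithelial-like cells were close to those of the antibody-rich barcodes. Igkc made up 71.4%, 71.5%, 73.1% and 69.8% of the UMIs of the 7 genes in epithelial-like cells of PSp mice 1 and 2 and PCSp mice 1 and 2, and 75.0% to 75.4% in the antibody-rich barcodes of the first 3 mice, with the fourth, PCSp mouse 2, lower. Ighm as a share of Ighm and Igkc together was 14.0%, 16.8%, 15.2% and 12.4% in epithelial-like cells and 11.9%, 14.3%, 15.6% and 8.06% in the antibody-rich barcodes. PCSp mouse 2, whose antibody-rich barcodes were mostly IgA, was lowest in both. Epithelial-like cells held 91, 21, 150 and 94 Igha UMIs beside 693, 223, 1706 and 701 of Igkc. The antibody-rich barcodes held 6112, 1421, 6653 and 7816 beside 86645, 20253, 118935 and 47180. Relative to Igkc, Igha was thus higher in epithelial-like cells of the first 3 mice and lower in those of PCSp mouse 2. Variable genes gave a mixed picture: of the 10, 2, 38 and 5 Igkv UMIs outside the B cluster, 8, 0, 30 and 2 came from genes that led an antibody-rich barcode of the same mouse. The 38 of PCSp mouse 1 also held 19, 12 and 11 UMIs of genes that led barcodes of the other 3 mice, and the 10 of PSp mouse 1 held 2, 2 and 2. In PCSp mouse 2 the genes leading in PCSp mouse 1 matched 2 as well, so own leaders matched more UMIs than those of other mice in PSp mouse 1 and PCSp mouse 1 alone. These 2 mice also had the longest lists of leading genes, the lists holding 8, 3, 11 and 5 genes by mouse. No allowance was made for list length.

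Igkc per epithelial-like cell rose far less with depth than a transcript of the epithelium itself. From cells with 500 to 1000 UMIs to cells with 10000 to 20000, Igkc went from 0.0685 to 0.170 UMIs per cell in PSp mouse 1, from 0.0246 to 0.0420 in PSp mouse 2, from 0.250 to 0.451 in PCSp mouse 1 and from 0.150 to 0.144 in PCSp mouse 2. Pigr, the epithelial receptor that carries polymeric IgM and IgA, went from 0.688 to 11.8, 0.754 to 17.6, 0.926 to 16.4 and 0.564 to 16.6 over the same cells. In the deepest cells, of more than 20000 UMIs, Igkc stood higher again, at 0.477, 0.141, 0.828 and 0.455 UMIs per cell, and Pigr was at 55.9, 71.7, 63.2 and 47.9. In CPM the shallowest cells therefore stood highest for Igkc, at 94.3, 33.6, 346 and 204 CPM against 11.5, 2.74, 30.1 and 9.56 in the deeper bin. The 2 epithelial sub-clusters of highest Igkc, led by Krt14, Lgals7 and Krt5 at 82.7 CPM and by Apod, S100a1 and Fam25c at 79.4 CPM, were also the shallowest, with medians of 1044.5 and 1302 UMIs and 0.11 and 0.14 Igkc UMIs per cell. Whether the tags outside plasma cells came from free RNA, from attached cells or from transcription in place was not tested.

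**Figure D3:**
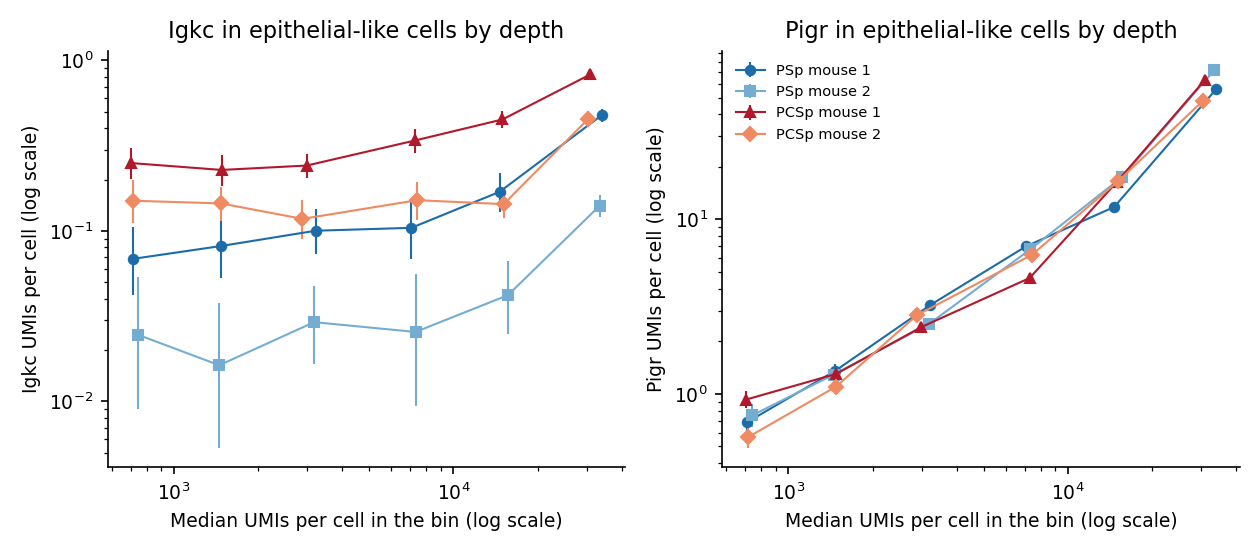
Igkc (left) and Pigr (right) in UMIs per epithelial-like cell against the median depth of 6 depth bins, by mouse, on log axes; bars are exact Poisson 95% intervals for counting error. Pigr climbs with depth along 1 line for all mice, and Igkc stays nearly level below 10000 UMIs at a height that differs by mouse.

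Ighm outside the B cluster departed from this pattern. It was at 1.08, 1.04, 0.848 and 0.623 UMIs per macrophage- and monocyte-like cell in PSp mice 1 and 2 and PCSp mice 1 and 2, against 0.0234, 0.0301, 0.0677 and 0.0164 per fibroblast-like cell. The 2 classes did not overlap, and the PSp mice were highest here while PCSp mouse 1 was highest for Igkc. After each cell was thinned to 1000 UMIs, Ighm was seen in 15.7%, 14.2%, 13.5% and 12.6% of macrophage- and monocyte-like cells (41.6%, 40.4%, 41.3% and 33.4% before thinning) and in 4 of 553, 3 of 568, 16 of 1064 and 2 of 835 fibroblast-like cells. Thinning left out 82, 116, 177 and 170 of the former cells as too shallow. Ighm made up 87.8%, 95.2%, 63.9% and 81.6% of Ighm and Igkc together in macrophage- and monocyte-like cells, above the antibody-rich barcodes and the B-like cells of every mouse.

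Heavy variable tags and B cell genes were scarce beside these macrophage tags. Among 1842 Ighm and 60 Igha UMIs in 2169 macrophage- and monocyte-like cells there were 3 heavy variable UMIs, or 1.58 per 1000 heavy chain UMIs, against 20.5 in the antibody-rich barcodes and 40.5 in the B-like cells. The B cell genes Cd79a and Ms4a1, which code for a part of the B cell receptor and a B cell surface protein, had 3 and 5 UMIs in those cells. The level that RNA of B and plasma cells carried over in proportion could leave depended on the marker taken. By Ly6d, the marker most widespread outside them, it was 794, 562, 2427 and 376 CPM of Ighm. By the least widespread of Cd79a, Ly6d and Mzb1 it was 5.99, 0, 8.38 and 1.98 CPM. Measured Ighm was 149, 164, 144 and 122 CPM. Ly6d was not confined to B and plasma cells: epithelial-like cells held 1.33, 0.864, 1.18 and 1.42 times their level. For Igkc in the macrophage- and monocyte-like cells, the level by Ly6d was 5490, 3173, 13054 and 2952 CPM. By the least widespread marker it was 41.4, 0, 45.1 and 15.5 CPM. Measured Igkc was 20.6, 8.34, 81.0 and 27.7 CPM, far below the level by Ly6d in every mouse. Which of the 2 levels applies to Ighm was not tested. By cluster, measured Ighm ran from 0.212 to 0.354 UMIs per cell over the 4 mice in the shallow cluster of median depth 979.5 UMIs. In the deepest, of median depth 10432.5, it ran from 0.820 to 2.51.

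**Figure D4:**
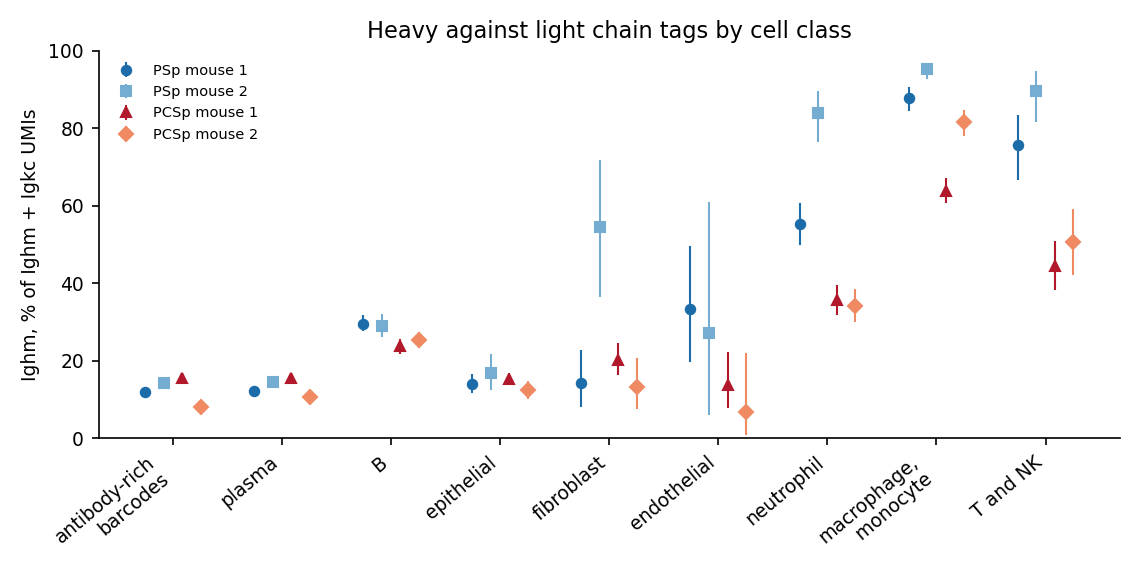
Ighm as a percent of Ighm and Igkc UMIs by cell class and mouse, with exact binomial 95% intervals that cover counting error only. Epithelial-like cells lie beside the antibody-rich barcodes, and macrophage- and monocyte-like cells lie above both in all 4 mice.

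Ighm also stood above fibroblast-like cells in 2 other classes. In neutrophil-like cells it was at 67.6, 30.8, 68.9 and 43.7 CPM in PSp mice 1 and 2 and PCSp mice 1 and 2, and in T and NK-like cells at 73.2, 71.0, 57.8 and 64.5 CPM, each above the fibroblast-like cells of the same mouse. After thinning, it was seen in 6.07%, 2.94%, 5.90% and 4.65% of neutrophil-like cells (12.8%, 6.70%, 13.3% and 6.61% before) and in 6.59%, 4.65%, 3.88% and 6.92% of T and NK-like cells (23.9%, 23.2%, 19.0% and 15.4% before). Per T and NK-like cell Ighm was at 0.447, 0.391, 0.274 and 0.233 UMIs. It was highest in the cluster led by Gzma, Ccl5 and Gzmc, genes of killer cells, at 0.978, 0.897, 0.738 and 0.604, against at most 0.286 in the other 2 T and NK clusters. Igha was highest in the same cluster, at 0.378, 0.259, 0.115 and 0.113 UMIs per cell against at most 0.0455 in the other 2, and was seen in 12, 10, 7 and 6 of its 45, 58, 61 and 53 cells with at most 3 in 1 cell. Cd79a and Ms4a1 had 1 UMI each in the 1118 T and NK-like cells, and 5 heavy variable UMIs stood beside 352 Ighm and 63 Igha UMIs.

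Neutrophil-like cells held heavy variable tags at 100.5, 159, 65.6 and 41.0 per 1000 heavy chain UMIs in PSp mice 1 and 2 and PCSp mice 1 and 2, against 35.6, 7.81, 57.6 and 45.4 in B-like cells, above them in every mouse but PCSp mouse 2. These rates rest on few tags: 21, 18, 16 and 8 heavy variable UMIs in neutrophil-like cells and 20, 2, 30 and 21 in B-like cells. Of the 63 such UMIs in neutrophil-like cells 43 came from 1 gene, Ighv1-64 (chr12:115507545-115508031, minus strand), with 14, 12, 11 and 6 in the 4 mice, spread over 42 cells with at most 2 in 1 cell. The gene had 66 UMIs in all barcodes, 18 of them in 1 antibody-rich barcode of PSp mouse 2 that it led. It was singled out after its values were seen.

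By the share of antibody UMIs that lay outside the B cluster among kept cells, the mice stood at 51.0% and 52.4% in PSp and 12.7% and 57.1% in PCSp. The means were 51.7% ± 0.987 (SD, n = 2) and 34.9% ± 31.4 (SD, n = 2), and the PCSp mice lay on both sides of the PSp mice (two-sided exact permutation test, p = 1, the smallest p this design allows being 0.33). The low share of PCSp mouse 1 goes with the antibody-rich barcodes it kept. With doublets kept the shares were 13.9%, 9.57%, 3.81% and 25.5%.

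The genotypes were compared on sums over all kept cells of a mouse. For Igkc the PSp mice had 34.9 and 12.2 CPM and the PCSp mice 578 and 44.9 CPM, a log2 fold of 3.69 ± 1.27 (SE). Jchain (1.67, 0.474, 63.1 and 1.82 CPM) and Igha (2.35, 0.658, 87.0 and 3.19 CPM) had log2 folds of 4.90 ± 1.71 and 4.89 ± 1.64. In all 5 genes that could be tested both PCSp mice lay above both PSp mice, as did 26.0% of the 17854 genes tested, and PCSp mouse 1 had the highest value of each. None of the 5 passed edgeR's quasi-likelihood test with Benjamini-Hochberg adjustment (adjusted p = 0.498 for Igkc), nor did any other gene (0% called; 1729 had an unadjusted p under 0.05, and DESeq2 called 261, none of them a member). With doublets kept the log2 fold of Igkc was 0.53, and with antibody-rich barcodes left out it was 1.08. Ighm (20.1, 12.5, 51.5 and 21.1 CPM) and Iglc2 (2.48, 1.78, 3.34 and 2.67 CPM) had log2 folds of 1.12 ± 0.45 and 0.46 ± 0.22. Igkc per plasma-like cell, at 10668 and 6298 UMIs in the PSp and 9078 and 8680 in the PCSp mice, overlapped between the genotypes.

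**Figure D5:**
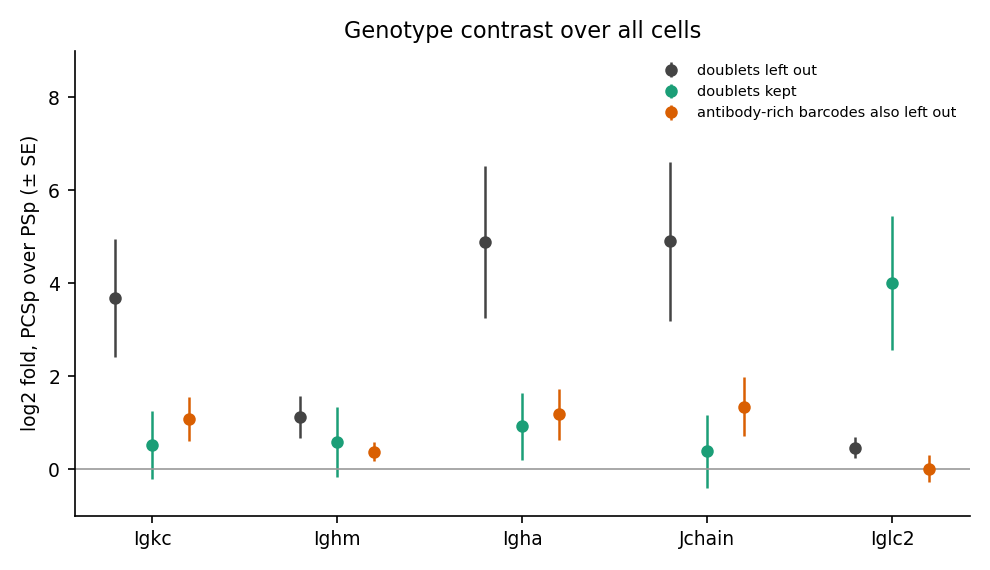
Log2 fold of PCSp over PSp, with its standard error, over all cells for the 5 genes tested, under 3 ways of counting. Igkc, Igha and Jchain stand near 4 to 5 with doublets left out and under 1.5 when doublets are kept or antibody-rich barcodes are also left out, and Iglc2 stands highest with doublets kept, at 4.00.

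Within classes, 1 member passed: Igkc was higher in T and NK-like cells of the PCSp mice. The PSp mice had 23.5 and 8.25 CPM (27 and 10 UMIs), and the PCSp mice 71.9 and 62.7 CPM (138 and 69 UMIs). The groups did not overlap, with both PCSp mice on top, as in 23.9% of the genes tested. The log2 fold was 2.06 ± 0.30 (SE), with an adjusted p of 0.00487 by edgeR's quasi-likelihood test, where 0.473% of the 7830 genes tested were called. Over 9 alternatives, among them each mouse left out, the log2 fold ran from 1.51 to 2.95 and the highest adjusted p was 0.0486. The clustering with immunoglobulin genes held the same T and NK-like cells, so it could not change the call. The call also held with DESeq2, no gene filter, doublets kept and the stricter filter. These called 31, 145, 21 and 29 genes in this class, against 37 in the main test. In the other classes the log2 fold of Igkc was 1.54 ± 0.48 in endothelial-like, 1.43 ± 0.57 in fibroblast-like, 1.87 ± 0.53 in macrophage- and monocyte-like and 1.78 ± 0.61 in neutrophil-like cells, none of which passed (adjusted p of 0.567, 0.999, 0.540 and 0.433). In these the share of genes called was 0%, 0%, 0.0799% and 0.0876%. With doublets kept the fold in fibroblast-like cells turned to -4.04, PSp mouse 1 then having 8449 Igkc UMIs there against 84. Igkc passed in endothelial- and fibroblast-like cells without PSp mouse 1, in macrophage- and monocyte-like cells without PCSp mouse 2, and in neutrophil-like cells without any one of PSp mouse 1, PCSp mouse 1 and PCSp mouse 2. In epithelial-like cells it was 2.34 ± 0.85 (adjusted p = 0.629, 0% of genes called) and 1.44 without the antibody-rich barcode. The contrast of Igkc in T and NK-like cells did not differ detectably from that in epithelial-like cells (log2 difference -0.22, adjusted p = 1), and the difference turned to 0.58 without the antibody-rich barcodes and to 0.94 without PCSp mouse 1. The part that RNA shared between droplets has in this call was not tested.

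Ighm did not follow Igkc in macrophage- and monocyte-like or in T and NK-like cells. In neutrophil-like cells, where Ighm also stood high, the genotypes overlapped, at 67.6, 30.8, 68.9 and 43.7 CPM. There PCSp mouse 1 was highest and PSp mouse 2 lowest, as for Igkc. In macrophage- and monocyte-like cells Ighm was at 149, 164, 144 and 122 CPM in PSp mice 1 and 2 and PCSp mice 1 and 2. Its log2 fold was -0.28 ± 0.13 (edgeR adjusted p = 0.789). In T and NK-like cells it was at 73.2, 71.0, 57.8 and 64.5 CPM, a log2 fold of -0.30 ± 0.16 (adjusted p = 0.715), and Igha was at 18.3, 15.7, 6.77 and 9.09 CPM, a log2 fold of -1.19 ± 0.37 (adjusted p = 0.298). For each of these 3 log2 folds the PCSp values were the lowest, with no overlap. The same held for 14.2% of the genes tested in macrophage- and monocyte-like and for 14.4% in T and NK-like cells. By edgeR's test of the difference itself, the contrast in T and NK-like cells was lower than that in epithelial-like cells for Ighm (log2 difference -1.76 ± 0.38, adjusted p = 0.00178) and for Igha (-3.78 ± 0.61, adjusted p = 9.66e-07), where 0.393% of genes were called. Without the antibody-rich barcodes these differences were -1.76 and -2.62 (adjusted p = 0.00181 and 0.0232), and without PCSp mouse 1 they were -1.03 and -2.29, neither of which passed (adjusted p = 1). Without PSp mouse 2 the difference of Ighm no longer passed either (adjusted p = 0.165). In the other 4 classes no member passed this test, with 0.486% of genes called in endothelial-like, 0.0181% in fibroblast-like, 0.0510% in macrophage- and monocyte-like and 0.0634% in neutrophil-like cells. For Ighm the log2 differences were -1.68 in macrophage- and monocyte-like cells (adjusted p = 0.300) and -1.23 in neutrophil-like cells (adjusted p = 0.0677). The former passed at -2.62 without PSp mouse 1, -1.02 without PSp mouse 2 and -2.02 without PCSp mouse 2, and the latter at -1.45 without PCSp mouse 2.

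In the few B-like cells (37, 22, 60 and 76) no member passed, against 0.0686% of genes called. Igkc was at 5673, 6559, 135547 and 6127 CPM, with PCSp mouse 1 far above the rest, and its log2 fold of 3.75 ± 0.87 (adjusted p = 0.365) was 0.05 once the 3 antibody-rich barcodes of that cluster were left out. Igha was at 4.26, 0, 21029 and 51.4 CPM, and without those barcodes at 4.26, 0, 223 and 51.4 CPM. The adjusted p was 0.0761 with them and 0.00250 without, the latter resting on few cells, since 10 of 190 B-like cells had an Igha UMI and 1 of them had 24.

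The genes that receive, attract and build antibodies were read from 4 lists, and over all cells none of their members passed between the genotypes. These lists were other antibody constant genes (4 of 6 tested, median log2 fold 0.73), antibody receptors and transport (10 of 11, 0.30), plasma cell recruitment and survival (14 of 15, 0.33) and antibody folding and secretion (12 of 12, 0.063), beside a median of -0.0088 over all 17854 genes tested. Pigr, which carries polymeric antibody across epithelium, was at 1232, 1571, 1408 and 1202 CPM in epithelial-like cells of PSp mice 1 and 2 and PCSp mice 1 and 2. Fcer1g, the signalling chain shared by several antibody receptors, was at 3070, 2873, 3186 and 2941 CPM in macrophage- and monocyte-like cells, and Fcmr, the receptor for IgM, was at 323, 328, 326 and 221 CPM in B-like cells. PCSp mouse 2 had the lowest Fcmr. Among attractants, Cxcl12, which draws plasma cells to their niches, was at 704, 354, 372 and 715 CPM in endothelial-like cells. Cxcl13, which draws B cells, was at 259, 233, 269 and 238 CPM in fibroblast-like cells and at 198, 138, 203 and 374 CPM in epithelial-like cells. Ccl28, the ligand of Ccr10, was at 5.46, 2.89, 7.79 and 6.55 CPM in epithelial-like cells. In plasma-like cells the chaperone Hsp90b1 was at 2332, 1894, 2710 and 3842 CPM, Mzb1 at 2065, 2647, 1912 and 2822 CPM and Sec11c, a part of the signal peptidase, at 1309, 1255, 1122 and 1411 CPM.

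In the classes 1 list gene passed. Fcer1g was lower in T and NK-like cells of the PCSp mice, at 709 and 948 CPM in PSp and 375 and 457 CPM in PCSp, with no overlap and a log2 fold of -1.05 ± 0.14 (edgeR adjusted p = 0.00347), where 0.473% of genes were called. Its contrast differed from that in epithelial-like cells by -1.61 ± 0.15 (adjusted p = 3.19e-23), where 0.393% of genes were called. The 3 T and NK clusters were mixed in other proportions in the 2 genotypes: the cluster led by Gzma, Ccl5 and Gzmc had 45 of 188 and 58 of 220 cells in the PSp mice and 61 of 405 and 53 of 305 in the PCSp mice, and the same cluster held the highest Ighm and Igha. The part of this mixture in the contrasts of Fcer1g, Ighm and Igha was not tested.

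Genes whose level followed the summed antibody genes outside the B cluster were ranked over 32 sums of mouse and class, among 11433 genes. The 5 highest Pearson correlations of log2(CPM + 1) were those of Rab10os (r = 0.843), Cklf (0.839), Rbpj (0.832), Csk (0.819) and Dock11 (0.811). The sums share libraries and differ in depth, so these values are a description.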

How the data were processed

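Single-cell RNA of 4 castrated mice was measured, 2 of each genotype. The authors deposited filtered matrices of raw UMI counts per gene and barcode, made with Cell Ranger 6.1.2 on mm10 per the submitters' processing notes. Barcodes with at least 500 UMIs, 300 genes and at most 20% mitochondrial UMIs were kept. Scrublet's automatic doublet call marked 2, 0, 64 and 0 barcodes, too few to have worked in 3 of the 4 libraries, so the highest scores were removed, at 0.8% per 1000 barcodes. Cells were clustered with scanpy 1.11.5 and leidenalg 0.10.2 (2000 variable genes, 30 components, resolution 1) without 393 immunoglobulin genes, and named by marker lists. The plasma-like class comes from the clustering with doublets kept.

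Counts were summed per mouse and class and compared with edgeR 4.0.16 (TMM, filterByExpr, quasi-likelihood test, Benjamini-Hochberg adjustment over all genes tested, threshold 0.05), with DESeq2 1.42.0 as an alternative. The test of a difference between classes used 1 model with mouse, class and class by genotype. A class needed 50 cells per mouse, and the B-like class 10. Scripts were tested on simulated data. Intervals are exact 95% Poisson or Clopper-Pearson intervals and cover counting error only, and a count of 0 allows up to 3 counts. The text names the 7 members, the list genes that passed or that stand for a role, and the 5 genes most like the members. Members and lists were chosen with earlier results of these data known. Alternatives were a clustering with immunoglobulin genes, a finer clustering, doublets kept, a stricter cell filter, no gene filter, DESeq2, each mouse left out and, added after the values were seen, antibody-rich barcodes left out. Sequences are from GENCODE M21 (GRCm38).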

Additional observations from a re-analysis of the deposited data

Results flagged for a closer look

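For 3 genes among the members and lists the genotype contrast in T and NK-like cells differed from that in epithelial-like cells by a test of the difference itself: Ighm by -1.76, Igha by -3.78 and Fcer1g by -1.61 on the log2 scale, where 0.393% of all genes tested were called. Ighm and Igha lost the call without PCSp mouse 1 (adjusted p = 1 by edgeR), Ighm also without PSp mouse 2 (adjusted p = 0.165), and Igha fell to -2.62 without antibody-rich barcodes. Of the 38 antibody-rich barcodes, 34 were among the barcodes left out by the cell filter or as doublets, a signal in data that the comparisons of kept cells do not use. Also left out were 3 barcodes of PSp mouse 1 that held both IgM and IgA tags, with 62, 50 and 49 Igkc UMIs, 18, 13 and 13 Ighm UMIs and 28, 20 and 15 Igha UMIs. Their mitochondrial shares lay between 57.1% and 69.6%. No antibody-rich barcode mixed the heavy chains in that way.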

How the results depend on the processing

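No paired analysis was possible because the labels give no replicate number or pairing shared by the genotypes. With 2 mice per genotype, leaving out 1 leaves a lone mouse that is assumed to vary like the others, and counts of called genes then moved widely. With each mouse left out they ran from 0 to 43 in B-like (2 with all mice), 87 to 131 in T and NK-like (37), 14 to 140 in endothelial-like (0), 0 to 2 in epithelial-like (0), 9 to 131 in fibroblast-like (0), 16 to 51 in macrophage- and monocyte-like (8) and 7 to 408 in neutrophil-like cells (8). Members called ran from 0 to 4 in B-like cells (4 without PSp mouse 2 and without PCSp mouse 2) and 0 to 1 in endothelial-, fibroblast-, macrophage- and neutrophil-like cells. For the difference from epithelial-like cells the counts ran from 14 to 78 in T and NK-like (62), 53 to 210 in endothelial-like (78), 8 to 214 in fibroblast-like (3), 34 to 259 in macrophage- and monocyte-like (8) and 22 to 65 in neutrophil-like cells (10), with 0 to 2, 0, 0 to 1, 0 to 1 and 0 to 3 members.

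DESeq2 called 261 genes over all cells, 6 in endothelial-like, 185 in epithelial-like, 6 in fibroblast-like, 25 in macrophage- and monocyte-like and 18 in neutrophil-like cells. Without a gene filter edgeR called 6 over all cells, 30 in B-like, 145 in T and NK-like, 179 in endothelial-like, 22 in epithelial-like, 152 in fibroblast-like, 56 in macrophage- and monocyte-like and 194 in neutrophil-like cells, with 4 members in B-like and 1 each in endothelial-, fibroblast-, macrophage- and neutrophil-like cells. With doublets kept it called 6 in B-like, 21 in T and NK-like, 4 in macrophage- and monocyte-like and 13 in neutrophil-like cells. The stricter cell filter gave 3 in endothelial-like cells. Clustering with immunoglobulin genes gave 4 genes and 1 member in B-like cells, and leaving out antibody-rich barcodes gave 1 member there.

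Directions turned for the Igkc contrast in T and NK-like minus epithelial-like cells (-0.22; 0.58 without antibody-rich barcodes and 0.94 without PCSp mouse 1), Igkc in B-like cells, whose log2 fold ran from -0.071 without PCSp mouse 1 to 4.71 without PCSp mouse 2, Igkc in fibroblast-like cells with doublets kept (-4.04), and the share outside the B cluster, whose difference of -16.8 percentage points became 2.94 with doublets kept and ran from -39.0 to 5.41 with each mouse left out. Ighm in macrophage- and monocyte-like cells with at least 2000 UMIs was 1.45 UMIs per cell. The cause of these changes was not tested. Few UMIs limit the members outside B and plasma cells, 10 to 138 per mouse for Igkc in T and NK-like cells.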
